A study of Mus musculus with 64 samples.

Results

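The 10 astrocyte genes described here are Gfap, Aqp4, Slc1a2, Slc1a3, Aldh1l1, Gja1, Gjb6, S100b, Fgfr3 and Etnppl, taken out of 18194 mouse genes named on the array. All probe sets annotated to these symbols were kept, 33 of 45101 on the array. Of these, 32 named 1 gene, and the Slc1a2 probe set 1433095_at also named the predicted gene Gm13872. RNA of 8 groups of mice was hybridised to 8 arrays each, 64 in all. Hippocampus and prefrontal cortex (frontal cortex in the study's design text) were taken from Tg2576 and wild-type littermates of the B6SJLF1 strain, 4 months old. Mice of each genotype had received either PF-04447943, which blocks PDE9A, an enzyme that breaks down cyclic GMP, or vehicle through subcutaneous pumps for 28 days. Tg2576 mice over-express a human mutant amyloid precursor protein from prion protein gene sequences, so the transgene is not limited to astrocytes. The 8 groups were, in each region, PF-04447943-treated Tg2576, PF-04447943-treated wild-type, vehicle-treated Tg2576 and vehicle-treated wild-type mice. The design text gives 8 mice in each group, but the labels do not tie a replicate number to a mouse, so the p-values measure the spread between these samples.

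Astrocytes take up glutamate and potassium released by neurons, move water at the blood vessel wall, and are joined into networks by gap junctions. They become reactive near amyloid deposits, and Gfap, the intermediate filament protein of the astrocyte cytoskeleton, is the usual marker of that state. Gfap is also known to stain hippocampal astrocytes more strongly than cortical ones. In whole tissue, fewer astrocytes and less RNA per astrocyte cannot be told apart.

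A probe set was tested where its mean reached the 40th percentile of all probe sets of the arrays compared. On this measure 30 of the 33 entered the hippocampal tests, 28 the prefrontal tests and 29 the tests across regions, and each of the 10 genes kept at least 1. The weakest, Slc1a3 1440491_at, Aldh1l1 1424401_at and Etnppl 1431406_at, were tested nowhere. The probe set with the highest mean over the 64 arrays represents a gene below where 1 is named. Its mean lay between percentile 61.9 (Etnppl) and 99.7 (Slc1a2) of all probe sets in hippocampus, and between 73.0 (Etnppl) and 99.6 (Slc1a2) in prefrontal cortex. Values are log2 RMA intensities, and levels of different probe sets are not compared, since each probe set has its own brightness.

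Any 2 arrays of a region correlated at 0.974 or above over all probe sets, and median intensities lay between 90.9 and 100.69. One hippocampal array stood apart for these genes, replicate 1 of PF-04447943-treated Tg2576 mice. It had the lowest Gja1 level of the 64 arrays, 11.56. Its mean over dentate granule cell markers was 7.03, against a mean of 8.51 in its group, and its mean over myelin markers was 9.28, against 10.61. Differences of the brightest Gja1 probe set that involve hippocampus are given with and without it. So are the hippocampal transgene differences of the myelin, dentate granule cell and choroid plexus markers.

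**Figure D1:**
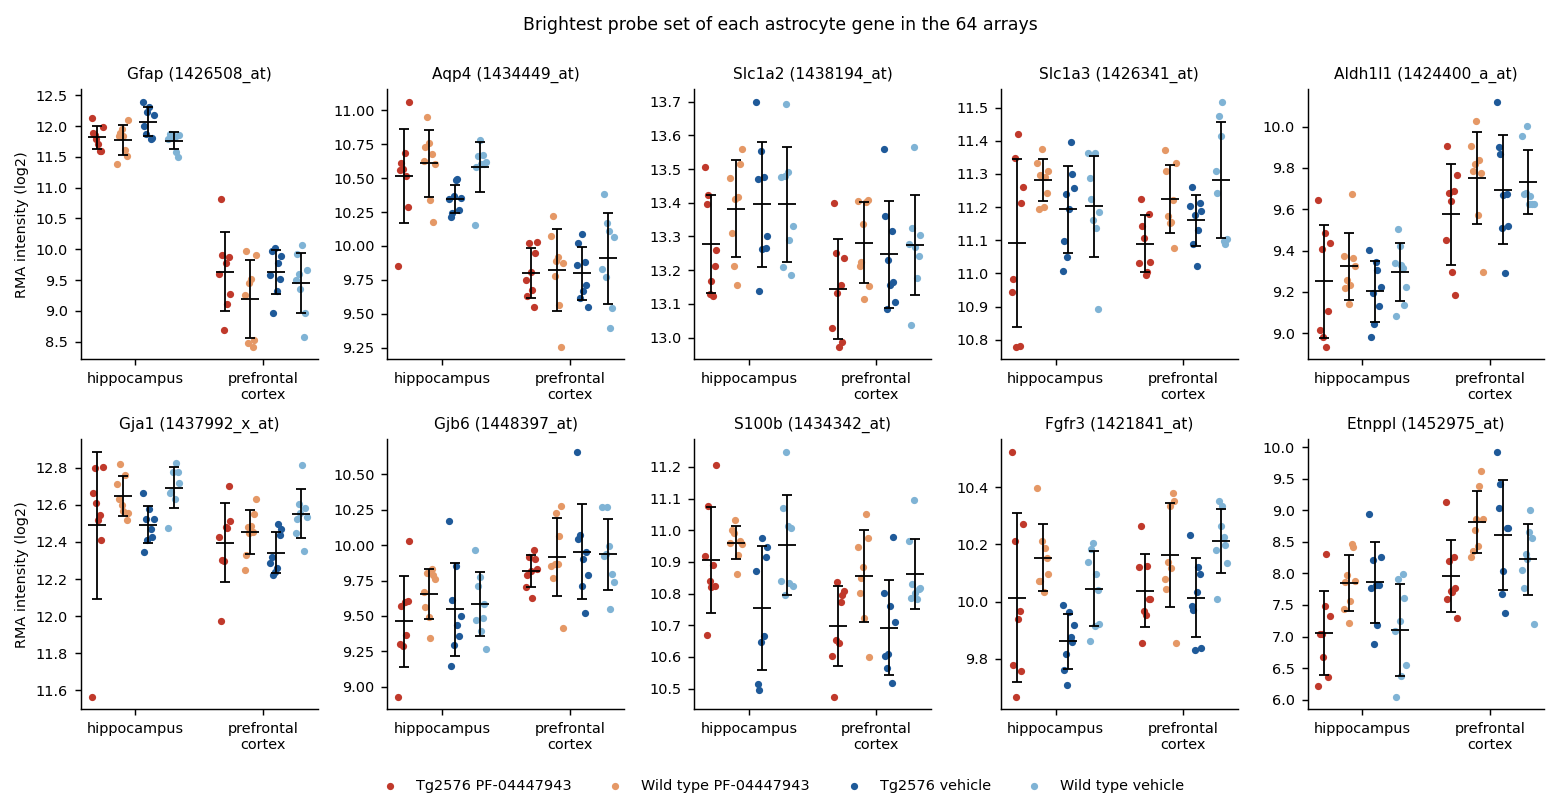
RMA intensity (log2, y axis, a scale of its own in each panel) of the brightest probe set of each astrocyte gene in the 64 arrays, by region and condition. Points are arrays, the long bar is the group mean and the whiskers are 1 SD (n = 8 each). Gfap lay between 11.38 and 12.40 in hippocampus and between 8.41 and 10.82 in prefrontal cortex, and the low Gja1 point of 11.56 is the hippocampal array that stood apart.

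The regional comparison set hippocampus against prefrontal cortex, averaged over the 4 conditions. Gfap was 5.20-fold higher in hippocampus, Aqp4 1.60-fold higher, while Etnppl was 1.91-fold, Aldh1l1 1.34-fold and Gjb6 1.27-fold lower in hippocampus than in prefrontal cortex. Of the 29 probe sets tested, 13 rose, against 31.4% of all probe sets, and 5 fell, against 36.9%. Together 18 passed, against 68.3% of all. That share is near the background, so the count itself is not a result about these genes. Their median difference was 0.07, against -0.02 over all probe sets, and 9 of the 10 brightest probe sets passed.

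Gfap separated the regions. Its probe set 1426508_at had its lowest, median and highest values at 11.38, 11.84 and 12.40 in the 32 hippocampal arrays, against 8.41, 9.55 and 10.82 in the 32 prefrontal arrays. No hippocampal array was as low as any prefrontal array. The difference was 2.38 ± 0.10 (SE), with an adjusted p of 1.75e-29 (limma, Benjamini-Hochberg over all probe sets). The second Gfap probe set, 1426509_s_at, also had regions that did not overlap, at a difference of 2.55. These were 2 of 29 astrocyte probe sets, against 1.59% of all probe sets. The third, 1440142_s_at, differed by 2.15 ± 0.15, and its ranges overlapped slightly, with 8.64 as the lowest hippocampal and 8.68 as the highest prefrontal value. In vehicle-treated wild-type mice alone, 1426508_at was 4.95-fold higher in hippocampus, with an adjusted p of 1.82e-14.

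Gfap also spread differently between arrays of 1 group in the 2 regions. The SD of 1426508_at lay between 0.14 and 0.24 in the 4 hippocampal groups and between 0.36 and 0.64 in the 4 prefrontal groups. PF-04447943-treated Tg2576 prefrontal cortex ran from 8.68 through a median of 9.69 to 10.82, and vehicle-treated wild-type prefrontal cortex from 8.57 through 9.55 to 10.07. In the order of the 8 group means, the 4 hippocampal groups came first, from 12.07 in vehicle-treated Tg2576 to 11.76 in vehicle-treated wild-type mice. The 4 prefrontal groups followed, from 9.63 in PF-04447943-treated Tg2576 to 9.19 in PF-04447943-treated wild-type mice. Neighbours in this order overlapped in range within a region, and no range of a hippocampal group met one of a prefrontal group.

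The promoter of Gfap is shown because Gfap had the largest regional difference of the 10 genes. The sequence covers the 250 bases before the annotated start, at chr11:102897201-102897450 on the minus strand of RefSeq assembly GRCm38.p6, written 5′ to 3′. No base is in capitals, since none of the motifs searched was found in it.
Gfap: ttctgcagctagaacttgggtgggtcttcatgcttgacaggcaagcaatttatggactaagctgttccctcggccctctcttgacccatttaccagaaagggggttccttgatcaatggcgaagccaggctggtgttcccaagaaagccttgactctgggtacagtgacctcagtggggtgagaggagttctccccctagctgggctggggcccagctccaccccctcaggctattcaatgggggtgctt
Both strands were searched for the STAT motif TTCCNGGAA, its looser form TTCNNNGAA, which contains every match of the stricter one, and the nuclear factor I site TTGGC, alone and as a pair of such sites facing each other. Promoters of 9 of the 10 genes were searched, with 11 starts in all. TTCCNGGAA was found in none of them and in 0.913% of 32851 mouse promoters. TTCNNNGAA was found for 1 gene, Slc1a3, and in 7.02% of promoters. The paired form was found in none and in 0.0365% of promoters, and TTGGC for 3 genes, Slc1a2, S100b and Etnppl, and in 41.5% of promoters.

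Aqp4, the water channel of astrocyte end-feet, was higher in hippocampus with all 3 probe sets. The brightest, 1434449_at, had its lowest, median and highest values at 9.85, 10.58 and 11.06 in hippocampus, against 9.26, 9.85 and 10.39 in prefrontal cortex. The ranges overlapped, but all 32 hippocampal arrays lay above the prefrontal mean. Such counts of arrays, here and below, are against the mean of the other group under the same condition. The difference was 0.68 ± 0.06, with a limma adjusted p of 4.28e-15, and the other probe sets differed by 0.29 and 0.45.

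The glutamate transporters differed little between regions. Slc1a2, which encodes GLT-1, the main glutamate transporter of the forebrain, had 13.12, 13.36 and 13.70 as lowest, median and highest values of 1438194_at in hippocampus, against 12.97, 13.23 and 13.56 in prefrontal cortex. The regions overlapped over most of their range, and the difference was 0.13 ± 0.04 with a limma adjusted p of 0.00347. The other 5 Slc1a2 probe sets did not pass, and 3 of them had differences below 0. Slc1a3, which encodes the transporter GLAST, differed by 0.00 ± 0.04 with its brightest probe set 1426341_at, which did not pass. Its weaker probe sets 1452031_at and 1439072_at were higher in hippocampus by 0.28 and 0.27, and both passed. Probe set 1439072_at was above the filter in hippocampus (percentile 42.3) and under it in prefrontal cortex (percentile 38.4), so it entered the test through the region where it was higher. Its value is given as a description, and it is 1 of the 13 counted above.

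Of the gap junction genes, the brightest probe set of Gja1 (connexin 43) and the only one of Gjb6 (connexin 30) went opposite ways. Gja1 1437992_x_at had its lowest, median and highest values at 11.56, 12.60 and 12.82 in hippocampus, against 11.98, 12.46 and 12.81 in prefrontal cortex. The ranges largely overlapped, and the difference was 0.14 ± 0.05 with a limma adjusted p of 0.00521. Without the lowest Gja1 array of each region, an alternative chosen after seeing the data, it was 0.16. Gja1 1415800_at averaged 11.96 in hippocampus and 11.79 in prefrontal cortex, 1438650_x_at 11.37 and 11.25, and 1438945_x_at 11.34 and 11.27. Gja1 1415801_at went the other way, at 10.29 in hippocampus and 10.39 in prefrontal cortex. Gjb6 1448397_at had 8.93, 9.57 and 10.17 in hippocampus, against 9.41, 9.88 and 10.66 in prefrontal cortex. Of the 32 hippocampal arrays, 29 lay below the prefrontal mean, and the difference was -0.34 ± 0.06 with a limma adjusted p of 4.99e-06.

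Aldh1l1 and Etnppl were lower in hippocampus. Aldh1l1, a folate enzyme (10-formyltetrahydrofolate dehydrogenase), had 8.93, 9.28 and 9.67 as lowest, median and highest values in hippocampus, against 9.19, 9.68 and 10.12 in prefrontal cortex. In hippocampus 31 of 32 arrays lay below the prefrontal mean, at a difference of -0.42 ± 0.05 and a limma adjusted p of 1.35e-10. Etnppl, which breaks down phosphoethanolamine, had 6.04, 7.52 and 8.95 in hippocampus, against 7.19, 8.33 and 9.93 in prefrontal cortex. Its spread was wide in both regions, 30 of 32 hippocampal arrays lay below the prefrontal mean, and the difference was -0.93 ± 0.15 with a limma adjusted p of 3.8e-07. Fgfr3, a receptor for fibroblast growth factors, differed by -0.09 ± 0.04 with an adjusted p of 0.0482, and this call was lost when any of 35 of the 64 arrays was left out.

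S100b, a calcium-binding protein, gave opposite regional differences with its 2 probe sets. Probe set 1434342_at had 10.50, 10.92 and 11.25 as lowest, median and highest values in hippocampus, against 10.47, 10.80 and 11.09 in prefrontal cortex. It was higher in hippocampus by 0.12 ± 0.04, with a limma adjusted p of 0.0037. Probe set 1419383_at had 9.99, 10.30 and 10.61 in hippocampus, against 10.30, 10.64 and 11.02 in prefrontal cortex. Here all 32 hippocampal arrays lay below the prefrontal mean, at a difference of -0.36 ± 0.04 and a limma adjusted p of 4.86e-12. Within a region the 2 probe sets still moved together between arrays, with r of 0.68 in hippocampus and 0.48 in prefrontal cortex. The files thus give no single regional direction for S100b.

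The promoter of S100b held 3 matches to TTGGC, the largest number among the 9 genes searched. It is the 250 bases before the start at chr10:76253586-76253835 on the plus strand of RefSeq assembly GRCm38.p6, 5′ to 3′, with the matches in capitals (GCCAA is TTGGC on the other strand).
S100b: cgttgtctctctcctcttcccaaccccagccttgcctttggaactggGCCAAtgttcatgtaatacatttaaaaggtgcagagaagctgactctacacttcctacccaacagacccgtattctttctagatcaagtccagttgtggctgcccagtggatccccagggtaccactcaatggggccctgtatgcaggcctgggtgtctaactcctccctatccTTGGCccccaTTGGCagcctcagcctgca
The matches began -203, -29 and -19 bases from the start. The nuclear factor I genes Nfib and Nfia, transcription factors of astrocyte development, were higher in hippocampus by 0.90 ± 0.04 and 0.45 ± 0.03, both past the threshold. A match is a description of the letters only, and no binding was measured.

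**Figure D2:**
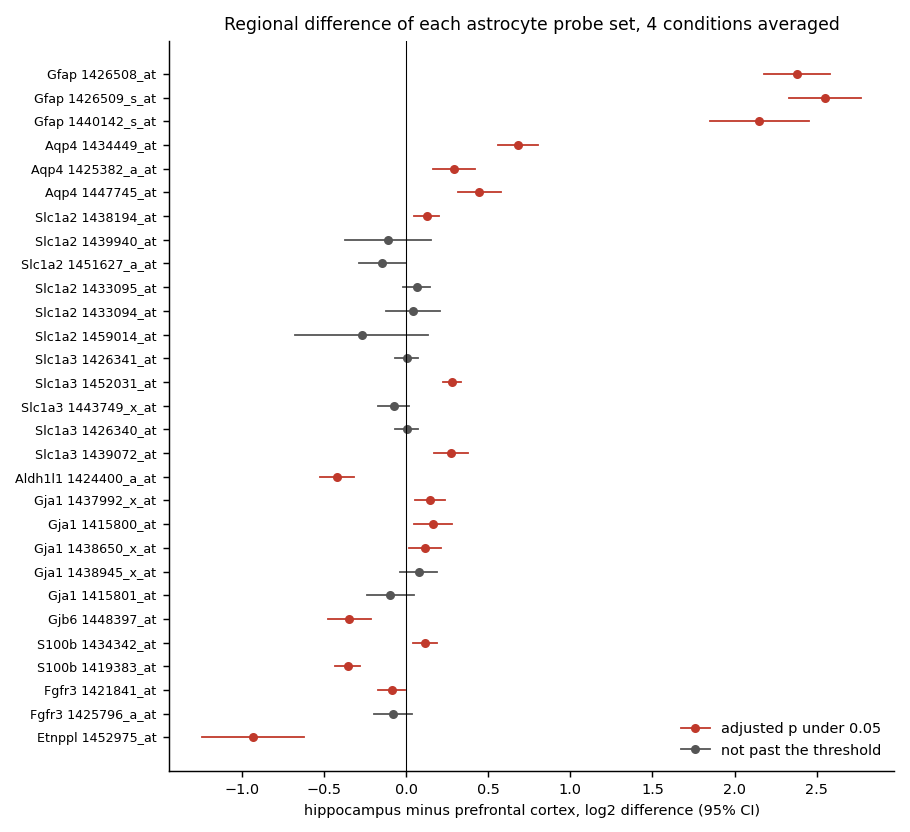
Difference between hippocampus and prefrontal cortex (log2, x axis) of the 29 astrocyte probe sets tested, averaged over the 4 conditions (32 arrays a region). Points are estimates and lines are 95% confidence intervals, with differences past the adjusted p threshold in red. The 3 Gfap probe sets lie between 2.15 and 2.55, Etnppl lies at -0.93, and the 2 S100b probe sets lie on opposite sides of 0.

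The vehicle-treated wild-type mice alone gave a smaller set of calls. Of 29 probe sets, 6 rose in hippocampus, against 18.4% of all probe sets, and 4 fell, against 22.1%, so 10 passed, against 40.5%. The groups did not overlap for 4 of them, the 3 Gfap probe sets and Aldh1l1, against 12.1% of all probe sets. Etnppl was 2.18-fold lower in hippocampus (-1.12 ± 0.31, limma adjusted p = 0.00258), and Aldh1l1 1.35-fold lower (-0.44 ± 0.10, adjusted p = 0.000424).

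Markers of other cell types also differed between the regions, where 31.4% of all probe sets were called higher in hippocampus and 36.9% lower. All 12 oligodendrocyte and myelin markers rose in hippocampus, with a median difference of 0.56 and a summed level between 14.64 and 15.85, against 14.72 to 15.49 in prefrontal cortex. All 5 choroid plexus markers tested rose, with a median difference of 2.43 and summed levels from 9.52 to 15.42, against 8.35 to 10.53. The lowest hippocampal levels of these lists, 14.64 and 9.52, were those of the hippocampal array that stood apart. Of 9 endothelial markers, 8 fell, with a median of -0.26. Of 8 choroid plexus markers on the array, 2 were under the filter in hippocampus and 5 in prefrontal cortex, and of 6 dentate granule cell markers, 3 were under it in prefrontal cortex. Some of the 5 choroid plexus markers tested thus entered through hippocampus, where they were higher. Their count and median are given as a description. The part of these cells in the regional differences of the astrocyte genes was not tested.

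Wider lists of astrocyte functions, chosen with earlier results of these data known, did not share 1 regional direction. They hold some of the 10 genes, such as Gja1 and Fgfr3, and some genes of other cell types. Their counts stand against 31.4% of all probe sets called higher and 36.9% called lower. Of 12 genes of glutamate, GABA and amino acid handling, 5 rose and 2 fell in hippocampus, among them the neuronal and glial transporter gene Slc1a1 (0.39 ± 0.04) and the glycine-cleaving Gldc (0.42 ± 0.05). Of 11 genes of potassium, water and membrane complexes, 8 rose and 1 fell, with a median of 0.26. They included Atp1b2, a sodium pump subunit (0.58 ± 0.04), and Dag1, which encodes dystroglycan (0.35 ± 0.02). Of 8 gap junction genes, 4 rose and 4 fell, with Gjc3 and Gjb1, both of oligodendrocytes, higher by 1.05 ± 0.06 and 0.54 ± 0.08. Gjc3 averaged 5.88 in prefrontal cortex, under the filter of 5.91 there, so it entered the test through hippocampus, where it was higher. Its value is given as a description, and it is counted among the 4 that rose. Of 11 fibroblast growth factor genes, 4 rose, including Fgfr1 (1.39 ± 0.06), and 6 fell, including Fgf12 (-1.04 ± 0.06). Of 15 genes of astrocyte transcription and Notch signalling, 10 rose and 3 fell, the Notch target Hes5 by -0.85 ± 0.08.

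Among 25 further surface and secreted astrocyte genes, 9 rose and 9 fell, against 31.4% and 36.9% of all probe sets. Chrdl1, a secreted regulator of synapses, was 3.29-fold lower in hippocampus (-1.72 ± 0.09), and Sparc was higher by 0.81 ± 0.06. Of 25 reactive astrocyte genes tested, 8 rose and 4 fell, against the same shares. The median difference of this list was -0.00, with 13 of 25 genes below 0 and the lowest at -0.73. The 3 genes with the smallest p all rose. Serpina3n, a protease inhibitor gene, was higher by 1.49 ± 0.08, Cd109 by 1.44 ± 0.09 and Ptgs2, which neurons also express, by 1.13 ± 0.10. Cd109 averaged 5.79 in prefrontal cortex, under the filter of 5.91 there, so it entered the test through hippocampus, where it was higher. Its value is given as a description, and it is counted among the 8 that rose.

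The effect of the transgene was tested in each region, averaged over both treatments. No astrocyte probe set passed the threshold in either region. In hippocampus 0 of 30 were called, against 0.0961% of all probe sets, and in prefrontal cortex 0 of 28, against 0.0259%. At an unadjusted p under 0.05 there were 12 in hippocampus, against 7.43% of all probe sets, 10 of them lower in Tg2576 mice, against 4.7%, and 2 higher, against 2.72%. In prefrontal cortex there were 11, against 11.3%, all lower in Tg2576 mice, against 2.36% of all probe sets.

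Most estimates lay slightly below 0. In hippocampus 25 of 30 did, against 50.3% of all probe sets, with a median of -0.10 against -0.00 over all. In prefrontal cortex 24 of 28 did, against 36.6%, with a median of -0.11 against 0.03. Several probe sets belong to 1 gene, so these counts are not counts of independent genes. By gene, 9 of the 10 brightest probe sets lay below 0 in each region, and Gfap was the one above 0 in both.

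The estimates were also made within ranges of replicate numbers, which the labels do not tie to a batch. In hippocampus the median was -0.20 within numbers 1 to 4, with 22 of 29 probe sets below 0, and -0.04 within numbers 5 to 8, with 20 of 30. Aqp4 was -0.31 and -0.02 in these ranges, S100b -0.24 and -0.02, Slc1a3 -0.22 and 0.02, and Gjb6 -0.27 and 0.04, with brightest probe sets. In prefrontal cortex the medians were -0.15 and -0.07, with 22 of 28 and 19 of 27 below 0. Gfap was above 0 in both ranges and both regions. The difference between the ranges was not tested.

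A measure of RNA quality, in which a higher value means less intact RNA, had lower means in Tg2576 than in wild-type prefrontal cortex. The 3′ minus 5′ difference of the control probe sets averaged 0.102 and 0.115 in Tg2576 mice under PF-04447943 and vehicle, against 0.143 and 0.153 in wild-type mice. With it as a covariate 23 of 28 prefrontal estimates lay below 0, with a median of -0.11. Aldh1l1 was then -0.01, against -0.11 without it, Slc1a2 -0.03, against -0.08, and Gjb6 0.05, against -0.04. Gja1 was -0.17, against -0.13. None of these passed either way, and the part of RNA quality in these estimates was not tested beyond this fit.

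Gfap 1426508_at had its lowest, median and highest values at 11.59, 11.88 and 12.40 in Tg2576 hippocampus, against 11.38, 11.84 and 12.10 in wild-type hippocampus. The ranges overlapped, 13 of 16 Tg2576 arrays lay above the wild-type mean, and the difference of 0.18 ± 0.07 had a limma adjusted p of 0.596. In prefrontal cortex the values were 8.68, 9.68 and 10.82 in Tg2576 mice, against 8.41, 9.48 and 10.07 in wild-type mice. The difference there was 0.31 ± 0.18, with an interval from -0.07 to 0.68 and an adjusted p of 0.491. The other Gfap probe sets gave 0.12 and 0.20 in hippocampus and 0.38 each in prefrontal cortex.

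Slc1a3 came nearest to the threshold. Probe set 1426340_at had 9.84, 10.23 and 10.49 as lowest, median and highest values in Tg2576 hippocampus, against 10.09, 10.50 and 10.70 in wild-type hippocampus. The ranges overlapped, although 15 of 16 Tg2576 arrays lay below the wild-type mean. The difference was -0.25 ± 0.06, with a limma adjusted p of 0.106. In prefrontal cortex the values were 10.08, 10.25 and 10.47 in Tg2576 mice, against 10.15, 10.39 and 10.75 in wild-type mice, and the difference was -0.16 ± 0.04 with an adjusted p of 0.243. Probe sets 1452031_at and 1443749_x_at gave -0.18 ± 0.04 and -0.27 ± 0.07 in hippocampus, with adjusted p-values of 0.106 and 0.278. The brightest Slc1a3 probe set, 1426341_at, gave -0.10 ± 0.06 in hippocampus and -0.13 ± 0.04 in prefrontal cortex, where all 16 Tg2576 arrays lay below the wild-type mean. Leaving out vehicle-treated Tg2576 replicate 5 brought 3 hippocampal Slc1a3 probe sets past the threshold, with limma adjusted p-values from 0.0376 to 0.0444. Leaving out PF-04447943-treated Tg2576 replicate 3 or vehicle-treated wild-type replicate 1 brought 1 past it, at 0.0332 and 0.0491.

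Gja1, Gjb6, Fgfr3 and S100b had estimates below 0 in both regions. Gja1 1437992_x_at had 11.56, 12.52 and 12.81 in Tg2576 hippocampus, against 12.47, 12.67 and 12.82 in wild-type hippocampus, a difference of -0.18 ± 0.08 (limma adjusted p = 0.610). Without the hippocampal array that stood apart it was -0.11 (limma adjusted p = 0.633). In prefrontal cortex it was -0.13 ± 0.05 (limma adjusted p = 0.388). Gjb6 differed by -0.12 ± 0.09 in hippocampus and -0.04 ± 0.09 in prefrontal cortex. Fgfr3 1421841_at had 9.67, 9.90 and 10.52 in Tg2576 hippocampus, against 9.86, 10.10 and 10.40 in wild-type hippocampus. Its difference was -0.16 ± 0.06 in hippocampus and -0.16 ± 0.05 in prefrontal cortex, with adjusted p-values of 0.587 and 0.337. S100b 1434342_at differed by -0.13 ± 0.05 and -0.16 ± 0.05, and in prefrontal cortex 15 of 16 Tg2576 arrays lay below the wild-type mean. None of these passed.

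The transgene effect did not pass a test of its difference between the regions for any of 29 probe sets, the smallest adjusted p being 0.782, against 0 of all 27061 probe sets called. Unadjusted, 1 of 29 did, against 6.08%.

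**Figure D3:**
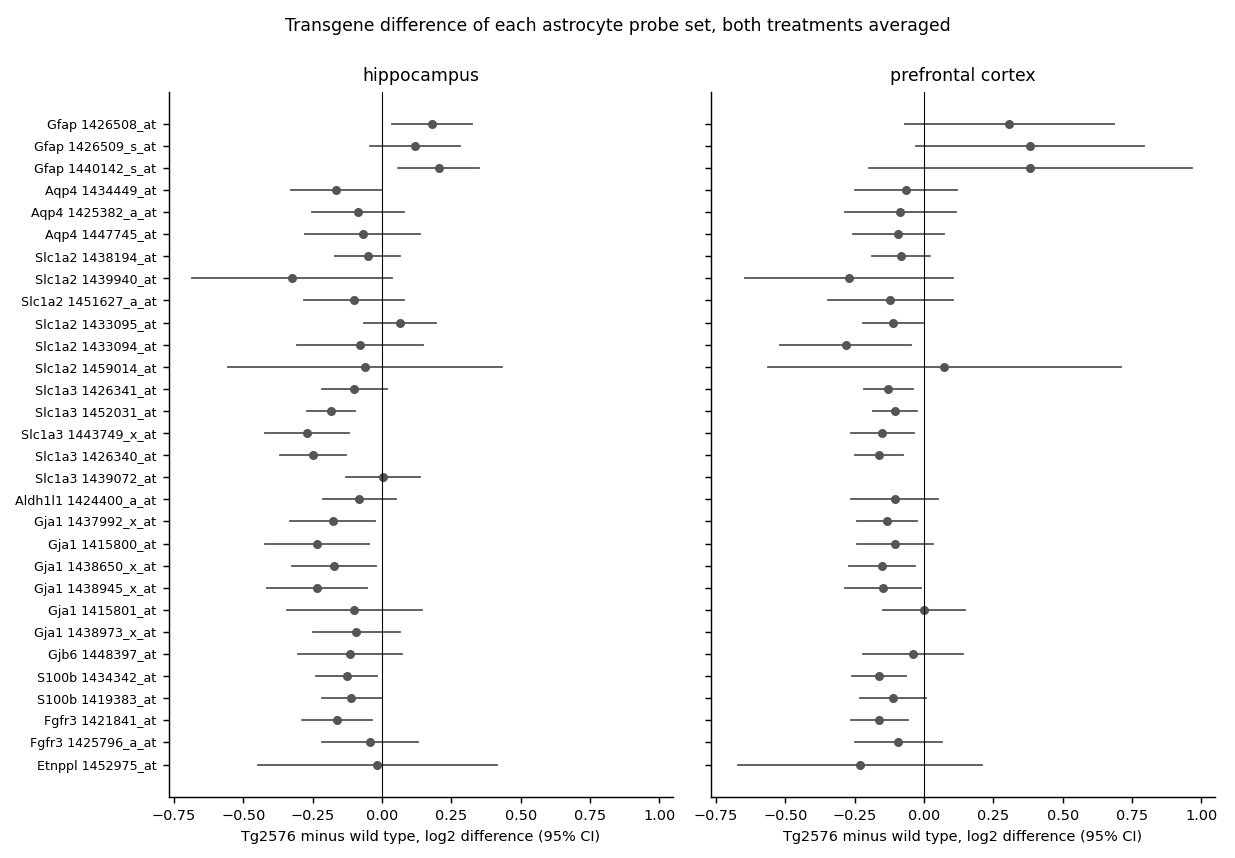
Difference between Tg2576 and wild-type mice (log2, x axis) of each astrocyte probe set tested, in hippocampus (left) and prefrontal cortex (right), averaged over both treatments (16 arrays a genotype). Points are estimates and lines are 95% confidence intervals. None passed the adjusted p threshold, 25 of 30 and 24 of 28 points lie below 0, and the 3 Gfap points lie above 0 in both regions.

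By treatment, the transgene comparison gave no call either. Under vehicle 0 of 30 hippocampal probe sets were called, against 0.0111% of all, with 12 at an unadjusted p under 0.05, against 6.12%. In prefrontal cortex 0 of 28 were called, against 0 of 27061, with 9 unadjusted, against 10.8%. Under PF-04447943 the counts were 0 and 0, against 0 of 27061 in both regions, with 4 unadjusted in hippocampus, against 4.69%, and 3 in prefrontal cortex, against 3.39%.

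Markers of other cells were set beside these estimates, and Ogn, of meningeal fibroblasts, was the one that passed in hippocampus (-0.85 ± 0.17, limma adjusted p = 0.0267). The 6 choroid plexus markers tested all had estimates below 0, with a median of -0.47, and the summed level of the list ran from 9.52 to 15.36 in Tg2576 mice and from 9.95 to 15.42 in wild-type mice. All 12 myelin markers lay below 0, with a median of -0.17 and summed levels of 14.64 to 15.83 in Tg2576 mice and 15.18 to 15.85 in wild-type mice. Of 6 dentate granule cell markers, 5 lay below 0, with a median of -0.33 and summed levels of 11.91 to 12.32 in Tg2576 mice, against 11.95 to 12.65 in wild-type mice. Without the hippocampal array that stood apart, the difference in list mean was -0.09 for myelin, against -0.18 with it, -0.28 for dentate granule cells, against -0.39, and -0.36 for choroid plexus, against -0.45. The lowest summed myelin level of Tg2576 mice was then 15.34. In prefrontal cortex all 12 myelin markers also lay below 0, with a median of -0.10. Of all probe sets, 50.3% lay below 0 in hippocampus and 36.6% in prefrontal cortex. Of 12 microglial markers, 11 lay above 0 in hippocampus and all 12 in prefrontal cortex, with medians of 0.05 and 0.08. The part of these cells in the astrocyte estimates was not tested.

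The wider astrocyte lists were summarised by their median differences. In hippocampus these were -0.13 for 12 amino acid handling genes, -0.07 for 11 potassium and water genes, -0.11 for 8 gap junction genes, -0.05 for 11 fibroblast growth factor genes, -0.08 for 15 transcription genes and -0.09 for 25 surface and secreted genes. In that last list 23 of 25 lay below 0, and Dio2, the deiodinase that activates thyroid hormone, fell by 0.46 (-0.46 ± 0.07, limma adjusted p = 0.0020). In prefrontal cortex the medians were -0.06 for amino acid handling, -0.10 for potassium and water, -0.04 for fibroblast growth factor and -0.09 for surface and secreted genes. They were 0.05 for gap junction genes, with 3 of 8 below 0, and 0.05 for transcription genes, with 7 of 15 below 0. No other gene of these lists passed in either region. The 25 reactive astrocyte genes had a median of 0.00 in hippocampus, with 12 below 0, and 24 tested in prefrontal cortex had a median of 0.03.

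PF-04447943 was compared with vehicle over both genotypes. In hippocampus 1 of 30 astrocyte probe sets was called, against 2.18% of all and 1.4% called lower, and 4 had an unadjusted p under 0.05, against 20.9%. The call was the Slc1a2 and Gm13872 probe set 1433095_at. It had 6.41, 6.78 and 7.06 as lowest, median and highest values under PF-04447943, against 6.61, 7.0 and 7.39 under vehicle. The ranges overlapped, 15 of 16 treated arrays lay below the vehicle mean, and the difference was -0.23 ± 0.06 (limma adjusted p = 0.0473). The other 5 Slc1a2 probe sets did not pass, and the brightest differed by -0.07 ± 0.06.

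This single call depended on the arrays and settings used. It was kept with the replicate block and when any of 10 of the 32 hippocampal arrays was left out. Leaving out any of the other 22 ended it, with adjusted p-values from 0.0517 to 0.0885. The spread of all values on an array (interquartile range, log2) differed with treatment in hippocampus, with means of 3.60 and 3.65 in PF-04447943-treated Tg2576 and wild-type mice, against 3.52 and 3.52 under vehicle. With that range as a covariate the difference was -0.11, with an adjusted p of 0.872. Slc1a3 1443749_x_at was estimated higher by 0.21 ± 0.07 and all 16 treated arrays lay above the vehicle mean, but the adjusted p was 0.109. Of the wider lists, F3, which encodes tissue factor, rose by 0.25 ± 0.06 (limma adjusted p = 0.0342).

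In prefrontal cortex the drug changed none of 28 astrocyte probe sets past the threshold, against 0 of 27061, and none had an unadjusted p under 0.05, against 2.26%. Of the estimates 25 of 28 lay below 0, against 52.5% of all, with a median of -0.04 against -0.00. For Gfap 1426508_at the difference was -0.13, with an interval from -0.51 to 0.24, and for Slc1a2 1438194_at -0.05, with an interval from -0.15 to 0.06. The drug effect did not pass a test of its difference between regions for any of 29 probe sets, the smallest adjusted p being 0.390, against 0.0296% of all probe sets called, and 3 had an unadjusted p under 0.05, against 9.09%. In each genotype alone, 0 astrocyte probe sets were called in either region. The background was 0.0037% for wild-type hippocampus and 0 of 27061 in the other cases. Unadjusted, 5 in Tg2576 and 3 in wild-type hippocampus had a p under 0.05, against 10.7% and 15%, and 1 each in prefrontal cortex, against 2.93% and 2.43%.

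The drug by genotype interaction was called for 0 of 30 probe sets in hippocampus and 0 of 28 in prefrontal cortex, against 0 of 27061 in each. Unadjusted, 1 and 4 had a p under 0.05, against 3.43% and 3.07%. Etnppl had the estimates farthest from 0 in both regions. In hippocampus it ran from 6.21 through a median of 7.04 to 8.31 in PF-04447943-treated Tg2576 mice, and from 6.88 through 7.82 to 8.95 in vehicle-treated Tg2576 mice. In wild-type mice it ran from 7.22 through 7.88 to 8.46 under PF-04447943, and from 6.04 through 7.17 to 7.99 under vehicle. Treated Tg2576 and vehicle wild-type arrays were the low ones, vehicle Tg2576 and treated wild-type arrays the high ones, with overlap between all 4 groups.

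In hippocampus the drug difference of Etnppl was -0.81 ± 0.30 in Tg2576 mice, where 7 of 8 treated arrays lay below the vehicle mean. In wild-type mice it was 0.75 ± 0.30, where 8 of 8 lay above. The interaction was -1.56 ± 0.42, with an interval from -2.42 to -0.70 and a limma adjusted p of 0.982. The same order of signs was seen in prefrontal cortex. There the group means were 7.96 ± 0.57 in treated Tg2576, 8.81 ± 0.49 in treated wild-type, 8.61 ± 0.87 in vehicle Tg2576 and 8.22 ± 0.56 in vehicle wild-type mice (SD, n = 8 each). The interaction there was -1.24 ± 0.43 (limma adjusted p = 1.0). Within replicate numbers 1 to 4 and 5 to 8 the interaction was -1.77 and -1.35 in hippocampus and -1.31 and -1.18 in prefrontal cortex. None of these estimates passed the threshold, and the labels do not say whether the 2 regions came from the same mice.

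How well probe sets of 1 gene moved together was tested over the 32 arrays of a region after subtracting group means. The p-values came from 100000 permutations within groups and were adjusted over 110 pairs. In each region 32 of 55 pairs passed, 28 of them positive and 4 negative. The 3 Gfap probe sets had r between 0.77 and 0.93 in hippocampus and between 0.94 and 0.98 in prefrontal cortex.

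The negative pairs included the 2 brightest Slc1a2 probe sets. Between 1438194_at and 1439940_at, r was -0.69 in hippocampus (Spearman's rho -0.70, permutation p = 1e-05, the smallest these permutations can give, adjusted p = 3.33e-05). It was -0.71 without the 2 arrays farthest from the median, and -0.73 and -0.66 within numbers 1 to 4 and 5 to 8. In prefrontal cortex r was -0.48 (rho -0.50, permutation p = 0.0103, adjusted p = 0.0196), -0.46 without the extreme arrays, and -0.68 and -0.18 within the number ranges. So the arrays with more of 1 probe set tended to have less of the other. The spread of 1439940_at was also wider, with an SD of 0.54 in hippocampus and 0.55 in prefrontal cortex, against 0.16 and 0.15 for 1438194_at. The weak probe set 1459014_at went with 1438194_at and against 1439940_at, with r of -0.81 and -0.78 for the second pair. The files do not say which transcript ends each Slc1a2 probe set detects.

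**Figure D4:**
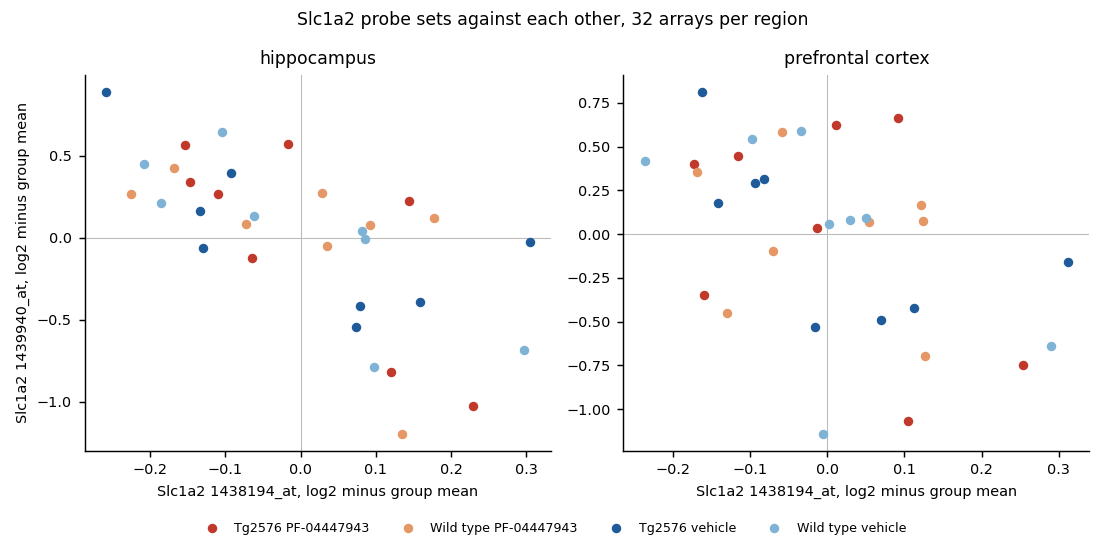
The 2 brightest Slc1a2 probe sets in 32 arrays of hippocampus (left) and prefrontal cortex (right), each as log2 intensity minus the mean of its group, with 1438194_at on the x axis and 1439940_at on the y axis. Points are arrays, coloured by condition. The clouds slope downwards, with r of -0.69 and -0.48, and the y axis spans a wider range than the x axis.

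The 10 genes were not 1 block across arrays. Over 90 pairs of genes in both regions, each gene taken by its brightest probe set, 3 of 45 pairs passed in hippocampus and 11 of 45 in prefrontal cortex. In hippocampus the passing pairs were Aqp4 with Gja1 (r = 0.79, rho 0.66, adjusted permutation p = 0.000900), Aldh1l1 with Fgfr3 (r = 0.73, rho 0.73) and Gjb6 with Etnppl (r = 0.50, rho 0.56). Without the 2 extreme arrays the Aqp4 and Gja1 r was 0.63, and 0.84 within each number range. Within numbers 1 to 4 and 5 to 8, r was 0.90 and 0.46 for Aldh1l1 with Fgfr3, and 0.72 and 0.24 for Gjb6 with Etnppl. In prefrontal cortex 8 passing pairs were positive, led by Aldh1l1 with Gjb6 (r = 0.74, rho 0.71) and Slc1a2 with Aldh1l1 (r = 0.66, rho 0.65). The 3 negative pairs were Aldh1l1 with Gja1 (r = -0.58), Gfap with S100b (r = -0.50) and Aqp4 with Etnppl (r = -0.48). In the 2 number ranges r was -0.33 and -0.42 for Aldh1l1 with Gja1, and -0.48 and -0.52 for Gfap with S100b. For Aqp4 with Etnppl it was -0.42 and -0.70. The permutations shuffled arrays within a group without keeping the number ranges apart. The median r over 45 pairs was 0.18 in hippocampus and 0.05 in prefrontal cortex.

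Markers of other cell types followed some of these genes across arrays. Over 200 pairs of an astrocyte gene and a marker list, 9 of 100 passed in hippocampus and 22 of 100 in prefrontal cortex. In prefrontal cortex Aqp4 and Gfap went with markers of oligodendrocyte precursors, at r of 0.81 (rho 0.80, adjusted permutation p = 0.0020) and 0.73 (rho 0.77, adjusted permutation p = 0.0040). Without the 2 extreme arrays these were 0.79 and 0.72. Within numbers 1 to 4 and 5 to 8 they were 0.69 and 0.82 for Aqp4, and 0.59 and 0.90 for Gfap. Gfap also went with meningeal fibroblast (0.65), choroid plexus (0.63) and microglial markers (0.57), and against neuronal markers (-0.55), all past the adjusted threshold. In hippocampus none of the 10 lists passed with Gfap. There Fgfr3 and Aldh1l1 went against dentate granule cell markers, at r of -0.74 and -0.66 (rho -0.63 and -0.66), and at -0.51 and -0.53 without the 2 extreme arrays. Gja1 with myelin markers in hippocampus had r of 0.71 but rho of 0.34, and r of 0.42 without the 2 extreme arrays, and did not pass. The part of tissue composition in the astrocyte values was not tested.

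**Figure D5:**
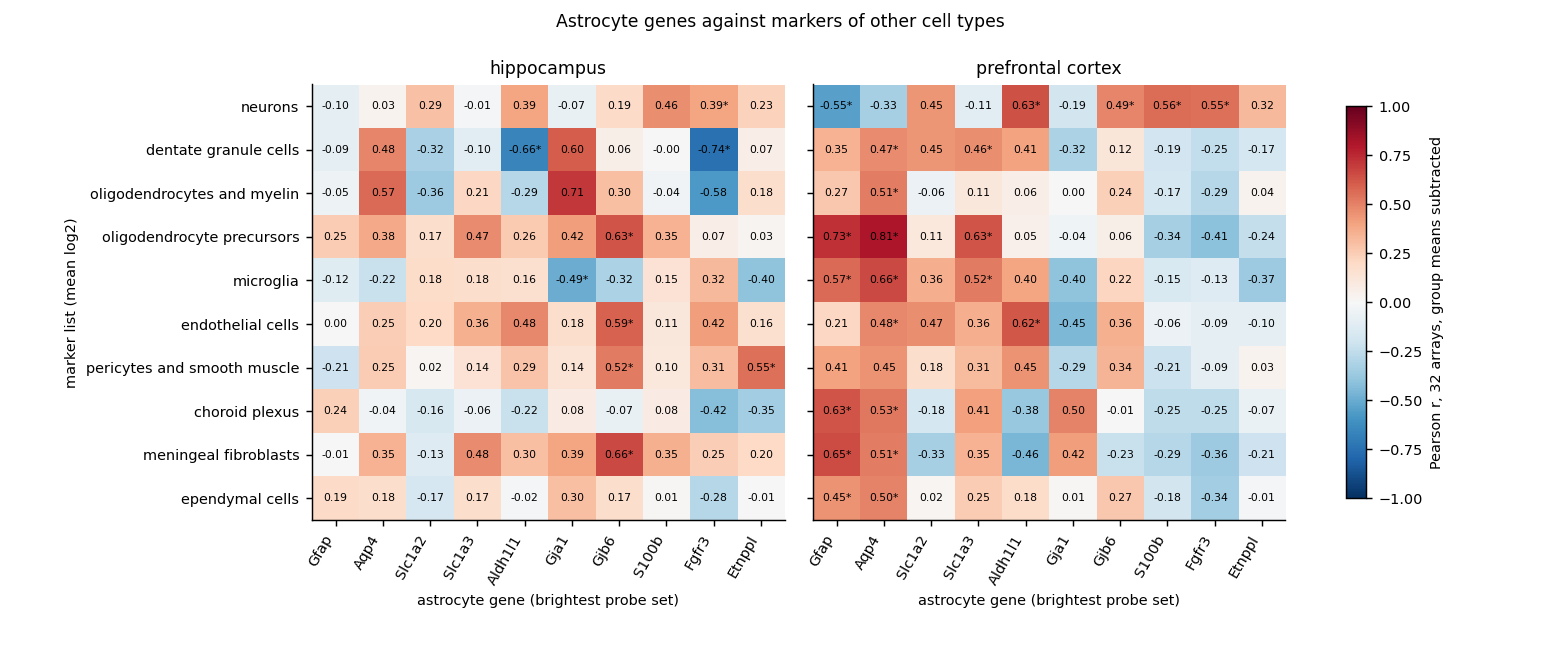
Pearson r (colour and number) between the brightest probe set of each astrocyte gene (x axis) and the mean log2 level of each marker list (y axis) over 32 arrays of hippocampus (left) and prefrontal cortex (right), with group means subtracted. An asterisk marks an adjusted permutation p under 0.05. Gfap has asterisks in prefrontal cortex, for 6 lists, and in no row of hippocampus, and the darkest blue cell is Fgfr3 with dentate granule cells at -0.74.

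The genes most like the 10 across arrays differed between the regions. Each gene outside the set was compared with the mean of the 10 scaled probe sets over 32 arrays, as a description. In hippocampus, among 12957 genes, the highest r were those of Sparcl1 (0.77), Sgpp2 (0.76), Rnd2 (0.75), Rnf144b (0.73) and Foxc1 (0.71). In prefrontal cortex, among 12923 genes, they were those of Ntsr2 (0.79), Snap23 (0.75), Itprid2 (0.74), Gpld1 (0.74) and Mlc1 (0.74). Within the set, Gjb6 was nearest to the mean of the other 9 in both regions, with r of 0.66 in hippocampus and 0.71 in prefrontal cortex. Gfap was among the farthest, with r of 0.17 and -0.07.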

How the data were processed

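The authors hybridised biotin-labelled cRNA of total RNA to Affymetrix mouse genome arrays and deposited RMA intensity values on a linear scale, per the submitters' processing notes and the values themselves. The RMA software, its version and whether all arrays were normalised together are not stated in the sources that were used. Values were converted to log2. Symbols came from the array's annotation table. The 10 genes and all gene lists were chosen with earlier results of these data known.

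Each region was fitted with limma 3.58.1 in R 4.3.3 over its 32 arrays and 4 groups, and regional comparisons over all 64 arrays and 8 groups, without a replicate block. Probe sets under the 40th percentile of mean log2 intensity were left out, which kept 27061. P-values were adjusted by Benjamini-Hochberg over all of them, with a threshold of 0.05. Correlations were computed in Python 3.11.15 with numpy 2.4.6. The scripts were tested on simulated data. The labels do not say that equal numbers mark 1 mouse. For that reason the numbers were not taken as pairing. Of 32 same-numbered pairs of the 2 regions, 21 had a correlation of their deviations over 0.1, and 17 correlated best with their own number. Between groups within a region, 26 of 48 same-numbered pairs in hippocampus and 35 of 48 in prefrontal cortex were over 0.1. There 11 and 12 correlated best with their own number. Pairing was thus neither assumed nor excluded. Arrays have no sequencing depth, and the number of arrays limits precision.

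Named were every probe set of the 10 genes, up to 3 genes past the threshold with the smallest p per other list in the averaged comparisons, and the 5 genes per region most like the mean of the 10. The alternatives changed the filter, the probe set rule, normalisation, variance prior, array weights, covariates, the arrays in the fit, a replicate block, replicate number ranges and the threshold, and left out each array in turn. The alternative without the array lowest in Gja1 in each region was chosen after seeing the data.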

Additional observations from a re-analysis of the deposited data

Results flagged for a closer look

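Among 232 sets of 8 arrays, 1 for each group and each astrocyte probe set tested in its region, 14 had 1 array far from the others, where chance gives about 1 in 20. In 7 of them it was PF-04447943-treated Tg2576 hippocampus replicate 1. That array was lowest for 5 Gja1 probe sets, at 11.56 (1437992_x_at), 10.99 (1415800_at), 10.44 (1438650_x_at), 10.41 (1438945_x_at) and 5.16 (1438973_x_at). It was also lowest for Slc1a2 1433094_at, at 6.28, and highest for Gfap 1440142_s_at, at 9.58. PF-04447943-treated Tg2576 prefrontal cortex replicate 2 was lowest for Gja1 1415800_at, at 11.17. Vehicle-treated Tg2576 hippocampus replicate 1 was highest for Gja1 1438973_x_at, at 6.15, and replicate 5 highest for Slc1a3 1452031_at, at 11.12. In PF-04447943-treated wild-type hippocampus, replicate 7 was lowest for Slc1a2 1439940_at, at 10.54, replicate 3 lowest for Slc1a2 1433095_at, at 6.41, and replicate 6 highest for Aldh1l1 1424400_a_at, at 9.67. Vehicle-treated wild-type hippocampus replicate 1 was lowest for Aqp4 1434449_at, at 10.16.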

How the results depend on the processing

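The hippocampal drug comparison called 1 astrocyte probe set. It called 0 with the 60th percentile filter, the brightest or the mean probe set per gene, quantile normalisation, median centring, a variance trend with a robust prior, the signal range or RNA quality as covariate, numbers 5 to 8 only, or without the array lowest in Gja1 in each region, and 2 with numbers 1 to 4 only. Leaving out single arrays gave 0 to 2. The causes were not tested, except that fewer arrays entered some fits. The prefrontal transgene comparison called 0, but 1 with array weights (Fgfr3, -0.20) and 1 with the signal range as covariate (S100b 1419383_at, -0.19), and the cause was not tested. The regional comparison called 18, but 9 with the brightest and 8 with the mean probe set per gene, which test 1 value a gene. In vehicle-treated wild-type mice it called 10, but 5 under each of these. With the mean of its probe sets, the regional difference was reversed for S100b (-0.12) and Slc1a2 (-0.0719), whose probe sets differ in sign. The drug effect compared between regions called 0, but 1 with numbers 1 to 4 only. Leaving out single arrays gave 0 to 3 in the hippocampal transgene comparison, 17 to 19 in the regional one and 8 to 10 in vehicle-treated wild-type mice. With the replicate block the counts were 0 for the transgene in both regions, 1 for the drug in hippocampus, 19 for the regions and 10 for vehicle-treated wild-type mice, and 17 of 32 arrays correlated best with their own number across regions. The regional difference of Gfap 1426508_at stayed between 2.29 and 2.43 over all settings run.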
